A study of Mus musculus with 6 samples.

Results

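The synaptonemal complex is the protein zipper that joins homologous chromosomes during meiotic prophase. Its central region bridges the chromosome axes and is built from the 6 proteins encoded by Sycp1, Syce1, Syce2, Syce3, Tex12 and 4930447C04Rik (also known as Six6os1). These 6 genes were taken by symbol, and all 6 were found among the 55487 gene identifiers of the count table and passed the filter on low counts. They were described in testes of juvenile mice at postnatal day 19, in 3 control and 3 dsfb libraries of polyadenylated RNA, each from a different mouse. Per the series title, the dsfb animals carried SFB alleles of both Hormad1 and Hormad2, whose products mark unsynapsed chromosome axes. The labels neither describe the SFB allele further nor give the genotype or strain of the controls, and they name no treatment.

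SYCP1 forms the transverse filaments, whose one end lies on the chromosome axis and whose other end meets its counterpart in the middle. SYCE3, SYCE1 and SIX6OS1 are known to act in the start of synapsis and to stabilise the central element, while SYCE2 and TEX12 form a complex that lets the structure grow along the chromosome. Male mice that lack any of these proteins are known to arrest in meiosis and to be sterile. The central region assembles in zygotene, is complete in pachytene and is taken apart in diplotene.

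Transcripts of the central region had fold changes of both signs and of different sizes. Syce1 was 5.77-fold and Syce3 2.86-fold lower in dsfb testes, and Tex12 was 1.87-fold lower. Sycp1 (759 ± 300 CPM in control and 490 ± 37.7 CPM in dsfb, SD, n = 3), Syce2 (64.7 ± 13.9 and 84.0 ± 2.93) and 4930447C04Rik (113 ± 43.9 and 130 ± 3.86) did not pass the test, where CPM are counts per 1 M counts of TMM-scaled library size. In all, 3 of the 6 genes fell and 0 rose (edgeR quasi-likelihood test, adjusted p under 0.05), beside 36.2% of all 19826 tested genes that fell, 30.7% that rose and 66.9% that changed in either direction. The median log2 fold change of the 6 genes was -0.77, against 0.02 for all tested genes. With limma-voom 2 of the 6 fell, as they did without control replicate 2 or any 1 of the dsfb libraries. Leaving out control replicate 3 gave 4 falls and 0 rises, and the replicate number as a block gave 4 falls and 1 rise. Upper-quartile scaling, library size alone and leaving out control replicate 1 each gave 2 falls and 1 rise.

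The library labelled control replicate 3 stood apart from the other controls, and the main values for the 6 genes are given with and without it. Its 8 spermatid markers summed to 571 CPM, against 132 and 153 CPM in control replicates 1 and 2. The 8 markers of leptotene to zygotene spermatocytes summed to 419 CPM there and to 689 and 703 CPM in the other controls. Depth was higher in control (24.0, 27.7 and 25.7 M counted reads) than in dsfb (17.3, 15.3 and 16.0 M). The smallest count of any of the 6 genes in any library was 300, for Syce3 in dsfb replicate 3.

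**Figure D1:**
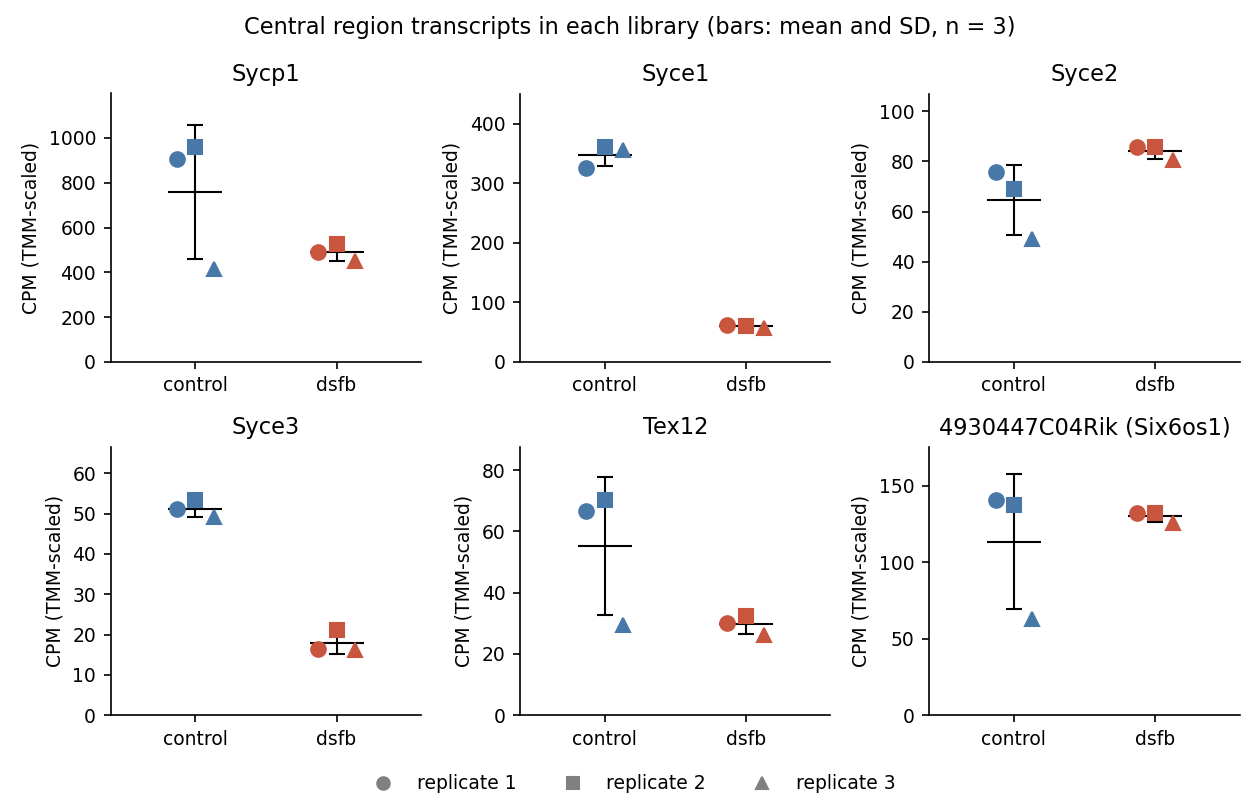
Level of each central region transcript in CPM (y axis) in the 3 control and 3 dsfb libraries (x axis), with marker shapes for the replicate numbers and black bars for the mean and SD. Syce1 and Syce3 are close among the controls and low in dsfb, whereas control replicate 3 lies far below the other controls for Sycp1, Tex12 and 4930447C04Rik.

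The transverse filament gene Sycp1 (ENSMUSG00000027855, chromosome 3, 102818499 to 102936100, minus strand, mm10) was the member with the highest read level in every library. Control replicates 1, 2 and 3 held 905, 959 and 415 CPM of it. The dsfb libraries, in the same order, held 491, 527 and 452 CPM. The groups overlapped, because control replicate 3 lay below every dsfb library while the other controls lay above all of them. Its log2 fold change was -0.63 (SE 0.29) with an edgeR adjusted p of 0.0833, above the threshold of 0.05. Without control replicate 3 it was -0.96 (SE 0.08, edgeR adjusted p = 4.75e-10), so the call depended on that library. The pseudogene Sycp1-ps1, from which reads could be exchanged with Sycp1, held 54, 79 and 85 counts in the controls and 6, 9 and 4 in dsfb, against at least 8369 counts for Sycp1.

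Syce1 (ENSMUSG00000025480, chromosome 7, 140777229 to 140787852, minus strand), which encodes a central element protein, had the largest fall of the 6. It was at 326, 361 and 356 CPM in the controls and at 62.9, 61.2 and 56.7 CPM in dsfb. Every control library was far above every dsfb library, and control replicate 3 was level with the other controls. Across many genes such a separation was common: 74.7% of tested genes had groups that did not overlap. The log2 fold change was -2.53 (SE 0.09, edgeR adjusted p = 4.98e-07), and 84.2% of tested genes changed by less in absolute log2 terms.

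Syce3 (ENSMUSG00000078938, chromosome 15, 89390174 to 89410503, minus strand) encodes the smallest central element protein, which binds SYCP1. It was at 51.2, 53.3 and 49.3 CPM in the controls and at 16.4, 21.2 and 16.2 CPM in dsfb. Again the controls were alike and the groups did not overlap. The log2 fold change was -1.52 (SE 0.14, edgeR adjusted p = 5.46e-05). Syce1 and Syce3 kept an adjusted p under 0.05 in all 15 alternative settings of the fit. Their log2 fold changes over all settings ran from -2.62 to -2.13 for Syce1 and from -1.65 to -1.12 for Syce3.

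Tex12 and Syce2, whose products bind each other, had fold changes of opposite sign, and only that of Tex12 passed the test. Tex12 (ENSMUSG00000032065, chromosome 9, 50556819 to 50561325, minus strand) was at 66.5, 70.1 and 29.3 CPM in the controls and at 30.2, 32.4 and 26.2 CPM in dsfb. Control replicate 3 lay within the range of the dsfb libraries, as it did for no other member. The fall of Tex12 had a log2 fold change of -0.90 (SE 0.30, edgeR adjusted p = 0.0302). Without control replicate 3 it was -1.24 (SE 0.10, edgeR adjusted p = 2.31e-10). Without any other single library the call was lost, with edgeR adjusted p from 0.0687 to 0.11.

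Syce2 (ENSMUSG00000003824, chromosome 8, 84872111 to 84888221, plus strand) had levels of 76.0, 69.1 and 49.1 CPM in the controls and of 85.7, 85.7 and 80.6 CPM in dsfb. The groups did not overlap, the lowest dsfb library being just above the highest control. Its log2 fold change was 0.38 (SE 0.16) and missed the threshold (edgeR adjusted p = 0.0639), and without control replicate 3 it was 0.18 (SE 0.09, edgeR adjusted p = 0.0617). Without control replicate 1 it was 0.46 and passed (edgeR adjusted p = 0.0369).

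The sixth gene, 4930447C04Rik (ENSMUSG00000021098, chromosome 12, 72881109 to 72940774, minus strand), encodes a central element protein that binds SYCE1. It was at 140, 137 and 62.7 CPM in the controls and at 132, 132 and 125.4 CPM in dsfb. Control replicates 1 and 2 were slightly above the dsfb libraries and control replicate 3 was far below them. The log2 fold change was 0.20 (SE 0.27, edgeR adjusted p = 0.545) and turned to -0.12 without control replicate 3 (SE 0.08, edgeR adjusted p = 0.166). Its exons share 192 bases (3.21% of their length) with Six6 on the opposite strand, which held 0 to 3 counts per library.

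Among the controls alone, replicate 3 was lower than the others for some members and level with them for the rest. Against the mean of control replicates 1 and 2, replicate 3 was lower by a log2 difference of -1.17 for Sycp1, -1.22 for Tex12 and -1.15 for 4930447C04Rik. The difference was -0.56 for Syce2, -0.08 for Syce3 and 0.05 for Syce1. These are values of 1 library and have no replicate check.

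Reads per kilobase of exon allow levels of different genes to be compared. On this scale the controls held 238 ± 13.1 CPM per kb of Syce1 and 214 ± 84.3 of Sycp1 (SD, n = 3), a difference within the spread of Sycp1. Syce3 followed at 92.7 ± 3.61, Tex12 at 54.4 ± 22.2, Syce2 at 32.9 ± 7.08 and 4930447C04Rik at 18.96 ± 7.34 CPM per kb. The SD ranges of Tex12 and Syce2 overlapped, as did those of Syce2 and 4930447C04Rik. Within every control library, however, Tex12 was above Syce2 and Syce2 above 4930447C04Rik. In dsfb the order changed, and Sycp1 led at 138 ± 10.6 CPM per kb. Syce2 at 42.7 ± 1.49 and Syce1 at 41.3 ± 2.19 followed, with overlapping spreads but Syce2 slightly higher in every dsfb library. Syce3 (32.4 ± 5.11) and Tex12 (29.1 ± 3.10) also had overlapping spreads, and 4930447C04Rik was lowest at 21.7 ± 0.645. Without control replicate 3 the control means were 262 CPM per kb for Sycp1 and 235 for Syce1, with ranges that did not meet, so that Sycp1 then led in both groups. Exon length was the union of all annotated exons, and which of them were used was not measured.

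The make-up of the 6 genes by level per kb therefore differed between the control and dsfb libraries, and the shares were not tested. Syce1 supplied 32.0%, 33.4% and 47.5% of the summed level per kb of the 6 genes in control replicates 1, 2 and 3 and 14.1%, 12.8% and 13.7% in dsfb replicates 1, 2 and 3. Syce2 went from 5.04 ± 0.425% to 14.0 ± 0.587% and 4930447C04Rik from 2.83 ± 0.700% to 7.14 ± 0.330% (SD, n = 3). Shares are parts of a whole, so the share of a gene also rises when other members fall. The level of 4930447C04Rik itself was 18.96 ± 7.34 CPM per kb in control and 21.7 ± 0.645 in dsfb. The share of Sycp1 was 31.9 ± 7.95% in control and 45.2 ± 0.292% in dsfb. In control replicate 3 the share of Sycp1 was 22.7% and that of Syce1 47.5%, so this library lay farther from dsfb than the other controls did. Without that library the mean control shares were 36.4% for Sycp1, 32.7% for Syce1, 5.14% for Syce2 and 3.23% for 4930447C04Rik. The share of Tex12 was then 9.35% in control, close to its 9.53 ± 0.368% in dsfb. The summed level itself was 651 ± 120 CPM per kb in control (719 without control replicate 3) and 305 ± 21.6 in dsfb.

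**Figure D2:**
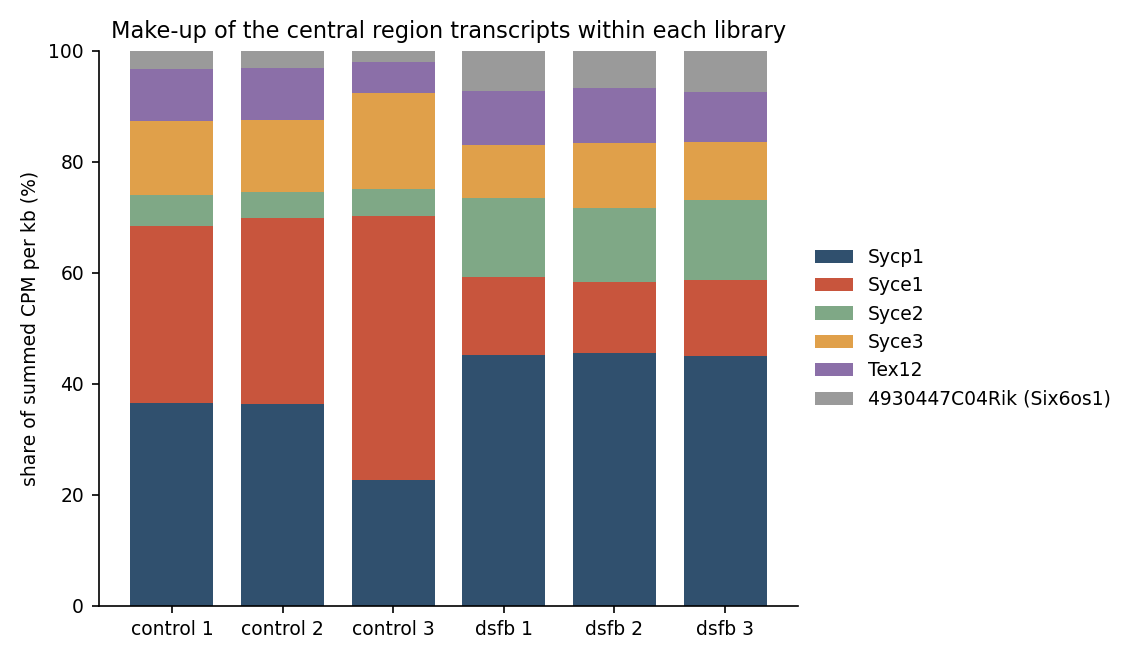
Share of each gene in the summed CPM per kb of the 6 central region genes (y axis, %) in each library (x axis). The Syce1 segment is 32.0% to 47.5% in the controls and 12.8% to 14.1% in dsfb, while the Syce2 and 4930447C04Rik segments are wider in dsfb.

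Ratios to Sycp1 within a library do not depend on how libraries are scaled, but they also move when Sycp1 itself changes. The log2 ratio of Syce1 to Sycp1 per kb was -0.19, -0.12 and 1.07 in the controls and -1.68, -1.82 and -1.71 in dsfb, a difference of -1.99, or 3.97-fold lower. The difference was -1.58, or 2.99-fold, without control replicate 3. For Syce3 the difference was -0.99, and -0.62 without that library. It was -0.26 for Tex12, 0.94 for Syce2 and 0.83 for 4930447C04Rik, and -0.28, 1.14 and 0.83 without that library. The Tex12 ratio was nearly constant within a group, at -1.98 ± 0.0292 in control and -2.24 ± 0.0488 in dsfb (SD, n = 3), although both genes were far lower in control replicate 3. Likewise the ratio of 4930447C04Rik was -3.49 ± 0.0598 in control and -2.66 ± 0.0766 in dsfb. For all 5 ratios the groups did not overlap, which held for 60.4% of all tested genes. By exact permutation of the library labels (two-sided), p = 0.1 for each of the 5, also after Benjamini-Hochberg adjustment over them, the smallest that 3 against 3 samples allows.

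Marker genes of testis cell types, spermatocyte stages among them, changed in both directions. Over all tested genes 36.2% fell and 30.7% rose. Each of the 10 genes that mark mid to late pachytene spermatocytes fell, and their summed level was 6629 to 9024 CPM in the controls and 108 to 115 CPM in dsfb. All 7 tested spermatid markers fell (132 to 571 against 6.54 to 8.58 CPM summed over 8 genes, with Catsper1 at 0 counts in dsfb). Among markers of leptotene to zygotene spermatocytes 7 of 8 rose and 0 fell (419 to 703 against 880 to 1024 CPM). All 9 Sertoli cell markers rose, from 2199 to 2968 CPM in the controls to 5290 to 5608 CPM in dsfb. Among 8 spermatogonial markers 5 rose and Dmrtb1 fell, and because Dmrtb1 was abundant the sum went from 643 to 865 CPM down to 336 to 385 CPM. Leydig cell markers rose in 3 of 6 cases (206 to 367 against 246 to 524 CPM), peritubular markers in 3 of 4 (190 to 304 against 348 to 475 CPM) and macrophage markers in 2 of 4 (25.9 to 40.8 against 46.2 to 71.9 CPM), with no falls. In the Leydig cell and macrophage lists 50% of the genes were called, below the 66.9% of all tested genes called in either direction. Without control replicate 3, 5 Leydig cell markers rose, and Meiob fell among the leptotene to zygotene markers. Only 5 spermatid markers were then tested, and all 5 fell. In whole testis fewer cells of a type and less RNA per cell cannot be told apart, and the part of cell make-up in the levels of the 6 genes was not tested.

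Other genes of synapsis and recombination also had fold changes of both signs. They ran from -4.06 to 1.24 on the log2 scale over 4 lists, against -2.53 to 0.38 for the central region. In each list 58.3% to 66.7% of the genes were called in either direction, beside 66.9% of all tested genes. Of 9 axis and lateral element genes 4 fell and 2 rose (median log2 fold change -0.58), or 6 fell and 3 rose without control replicate 3. Sycp2, which with Sycp3 forms the lateral elements to which the central region is anchored, had a log2 fold change of -1.23 (SE 0.20, edgeR adjusted p = 0.00118). Sycp3 itself was at 176 ± 63.0 and 129 ± 3.32 CPM (edgeR adjusted p = 0.149). Without control replicate 3 it fell, with a log2 fold change of -0.75 (edgeR adjusted p = 1.27e-08), but 52.2% of its exon length is shared with Chpt1 on the opposite strand. Among the targeted genes, Hormad1 was at 446, 486 and 209 CPM in the controls and at 217, 246 and 243 CPM in dsfb. Its log2 fold change was -0.69 (SE 0.28, edgeR adjusted p = 0.0597), and without control replicate 3 it was -1.02 and passed (edgeR adjusted p = 1.57e-10). Hormad2 fell 1.95-fold. The meiotic cohesin gene Stag3 fell 1.84-fold.

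Of 8 genes that regulate synapsis or the turnover of the complex 4 fell and 1 rose (median -0.35), or 3 fell and 3 rose with library size alone (median 0.05). The share called in the main fit was 62.5%, beside 66.9% of all tested genes. Psma8, a testis-specific proteasome subunit needed for normal removal of synaptonemal complex proteins, fell 7.38-fold from 343 ± 55.1 to 46.5 ± 4.95 CPM. Aurkc, a kinase of the meiotic divisions, fell 16.6-fold. Fkbp6, which is found on the complex and acts in the piRNA pathway, rose from 98.2 ± 7.22 to 144 ± 4.87 CPM (log2 0.56, SE 0.09, edgeR adjusted p = 0.000876). Trip13, the ATPase that strips HORMAD proteins from synapsed axes, was at 29.8 ± 4.34 and 33.6 ± 2.49 CPM (edgeR adjusted p = 0.298). Fkbp6, Trip13, Sycp2 and Sycp3 were chosen after their values were seen, as were Dmrtb1 and Catsper1 among the markers.

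Of 12 genes of break formation and strand exchange 4 fell and 3 rose (median -0.05), and of 11 genes of crossover formation and synapsis initiation 6 fell and 1 rose (median -0.72). The shares called were 58.3% and 63.6%, beside 66.9% of all tested genes. With upper-quartile scaling and with library size alone the break and exchange list had 3 falls and 6 rises (medians 0.23 and 0.35), and without control replicate 3 it had 6 falls and 4 rises. The crossover list had 5 falls and 3 rises with either of those scalings (medians -0.45 and -0.33) and 8 falls and 1 rise without control replicate 3 (median -0.94). Psmc3ip, which helps DMC1 in strand exchange, fell 4.36-fold, and Spo11, which makes the breaks, fell 4.002-fold. Dmc1 itself rose 2.36-fold. The crossover factor genes Cntd1 and Prr19 were lower by 4.47-fold and 7.34-fold. Exons of Psmc3ip and Cntd1 overlap those of genes on the opposite strand, over 21.2% and 70.2% of their length, so that both values are uncertain. Spata22, among the genes that fell, shares 80.5% of its exon length with Gm49340 on the same strand, and its value is uncertain too. Rec114, which was not called, shares 26.9% with Nptn on the opposite strand. Spata22 and Rec114 are named for these overlaps alone.

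**Figure D3:**
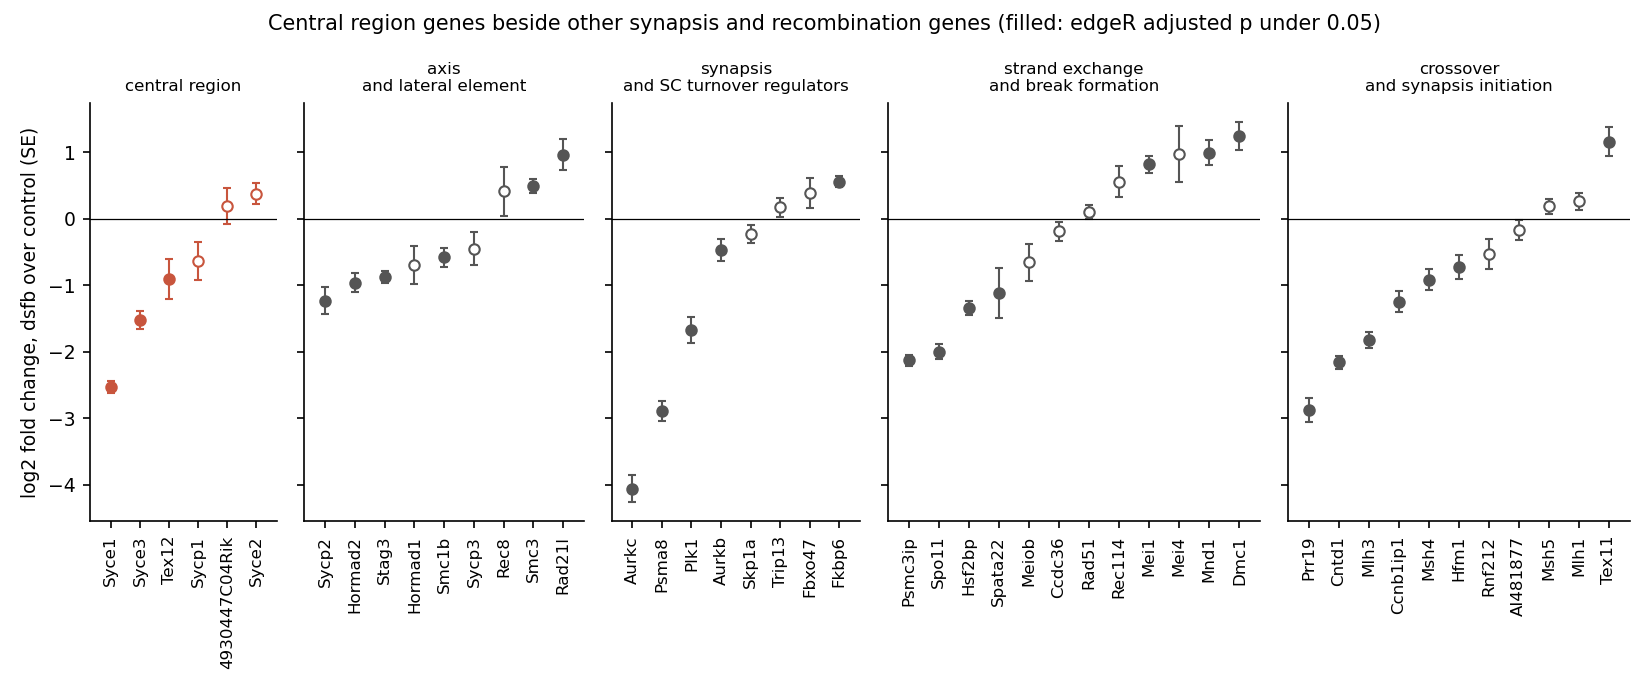
Log2 fold change of dsfb over control with its SE (y axis) for the 6 central region genes and 4 lists of synapsis and recombination genes (x axis), filled where the edgeR adjusted p was under 0.05. The central region genes span -2.53 (Syce1) to 0.38 (Syce2), inside the range of the other lists.

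The genes whose pattern over the 6 libraries was closest to each member differed between members. Likeness was the root mean square difference of log2(CPM + 0.5), each gene centred on its own mean, over 14196 genes with a mean of at least 1 CPM. The members themselves, genes without a symbol and genes with clone, Gm, Rik or pseudogene names were left out of these. Sycp1 was closest to Meiob, a single-strand DNA binding protein gene of meiotic recombination (0.06), and to Hormad1 (0.09), and Meiob was also near Tex12 (0.12, after Ranbp1 at 0.12). Syce1 was closest to Trim37 (0.03) and to Mael, a piRNA pathway gene (0.04). Syce3 was closest to Cep95 (0.03) and Bbs10 (0.07), Syce2 to Ap5m1 and Crot (0.02 each), and 4930447C04Rik to Ssb (0.07) and Rpl36a (0.09). A difference of under 0.1 was reached by 276 genes for Syce2, 30 for Syce1, 15 for Syce3, 6 for 4930447C04Rik, 2 for Sycp1 and 0 for Tex12. With 6 libraries in 2 groups such likeness is a description.

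The promoters of the 6 genes were read for short motifs because the members fell into different patterns. RefSeq windows of 250 bases before to 50 bases after an annotated start (GRCm38.p6) were found for all 6 genes, with more than one window for Syce2 and Syce3. The palindromic E-box CACGTG, a core recognised by basic helix-loop-helix dimers that contain MAX, was present in a window of Sycp1, Syce2, Tex12 and 4930447C04Rik, and in no window of Syce1 or Syce3. It was present in 8.09% of 27025 genes with a window. It began 94 bases before the start in Sycp1, 93 in Tex12, 88 in Syce2 and 171 in 4930447C04Rik. In Syce2 and 4930447C04Rik the E-box lay inside the gene span given above, ahead of an internal annotated start. The other Syce2 window lacked it. The stretches around it are shown so that the flanks can be compared. They are chr3:102936177-102936206 (minus strand), chr9:50561344-50561373 (minus), chr12:72917919-72917948 (minus) and chr8:84872158-84872187 (plus), read 5′ to 3′ with the E-box in capitals.
Sycp1: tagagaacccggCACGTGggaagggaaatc
Tex12: ccgcgagactgtCACGTGgctcgcgcgctg
4930447C04Rik: actgtggcctacCACGTGgtgcgcggggtc
Syce2: cgtttcattcagCACGTGctcggggcgggg

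The 4 genes with the E-box were those that were lower in control replicate 3, by log2 differences of -0.56 to -1.22, and the others were level there. That split comes from 1 library, and a link to the motif was not tested. In dsfb without control replicate 3 the log2 fold changes were -0.96 for Sycp1 and -1.24 for Tex12. They were -0.12 for 4930447C04Rik and 0.18 for Syce2. Each motif was searched on both strands. The MYB motif AACNGNC was present in windows of Syce1, Syce2 and Syce3 and in those of 36% of all genes. CNCCTCAG, a core ascribed to the meiotic initiator STRA8 and its partner MEIOSIN, was present in windows of the same 4 genes that hold the E-box and in those of 9.12% of all genes. The E2F motif TCCCGC was present in windows of Sycp1, Syce2 and Tex12 (22% of all genes) and shares bases with CNCCTCAG in Syce2. The CRE motif TGACGTCA was present in none of the 6 and in 2.03% of all genes. A match is not shown to be a bound site, and the motifs were chosen with results for these genes known.

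The regions before the starts of Sycp1 and Syce1 are given as the contrasting pair. They cover chr3:102936101-102936350 and chr7:140787855-140788104, both on the minus strand and read 5′ to 3′. Capitals mark the E-box in Sycp1 and the MYB motif that lies wholly before the start in Syce1.
Sycp1: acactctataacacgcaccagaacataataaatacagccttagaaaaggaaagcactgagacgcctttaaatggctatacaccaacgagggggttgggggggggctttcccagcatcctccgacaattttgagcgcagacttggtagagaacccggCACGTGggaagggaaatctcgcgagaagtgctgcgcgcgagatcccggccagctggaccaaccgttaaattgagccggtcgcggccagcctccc
Syce1: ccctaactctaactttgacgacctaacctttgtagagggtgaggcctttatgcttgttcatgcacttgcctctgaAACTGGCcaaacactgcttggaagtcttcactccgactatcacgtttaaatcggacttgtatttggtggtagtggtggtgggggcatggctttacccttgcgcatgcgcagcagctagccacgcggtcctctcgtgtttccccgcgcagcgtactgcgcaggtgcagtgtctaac

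Scaling bore on the smaller changes. Upper-quartile scaling and library size alone raised the median over all genes by 0.28 and 0.40 on the log2 scale, and the share of calls that were higher in dsfb went from 45.9% to 57.2% and 60.9%. With no filter on low counts that share was 35.5%. With upper-quartile scaling and library size alone, Syce2 passed as higher (log2 0.65 and 0.76) and Tex12 no longer passed (-0.63 and -0.52).

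**Figure D4:**
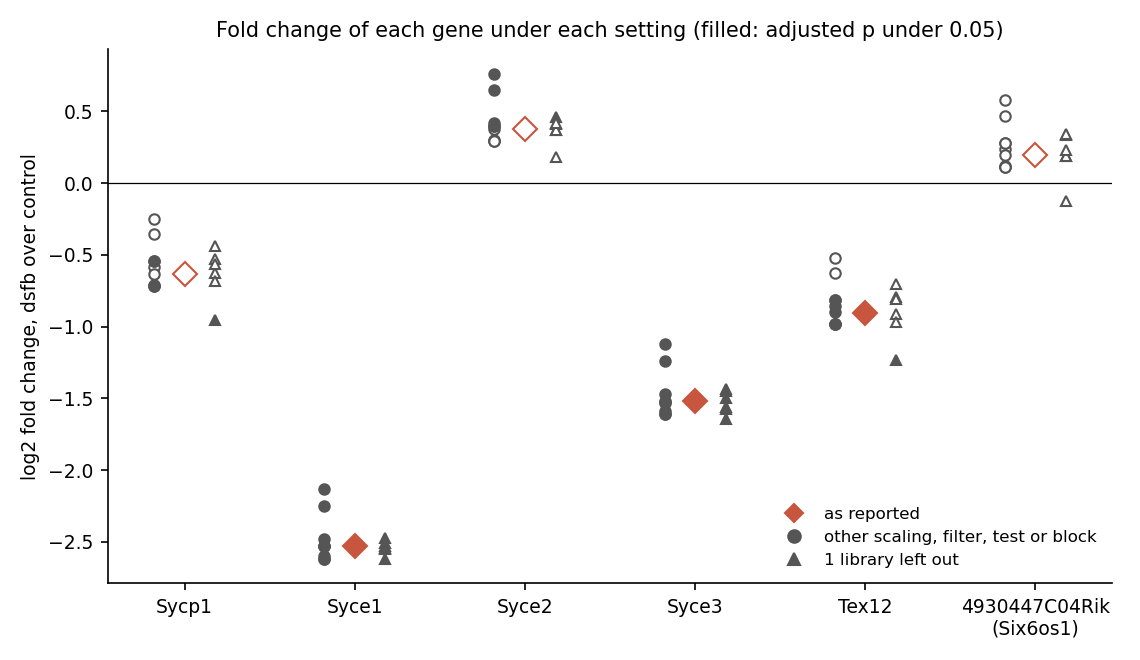
Log2 fold change of dsfb over control (y axis) for each central region gene (x axis) as reported, under other scalings, filters, tests or the replicate block, and with 1 library left out, filled where the adjusted p was under 0.05. Syce1 and Syce3 are filled throughout, and the sign of 4930447C04Rik turns in 1 setting.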

How the data were processed

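Testes of 6 mice at postnatal day 19, 3 control and 3 dsfb, were profiled as polyadenylated RNA. Per the labels' protocols the library kit was NEBNext Ultra. The submitters' processing notes name STAR 2.6.0 and mm10. The counter, its annotation and whether it used strand are details not given in the sources used here. The authors deposited raw counts per gene, unnormalized, with 1 column per library (15.3 to 27.7 M reads). Symbols, positions and exon lengths were taken from GENCODE M21 (GRCm38), and promoters from RefSeq (GRCm38.p6).

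The counts of all genes were fitted with edgeR 4.0.16 in R 4.3.3 (filterByExpr, TMM, glmQLFit and glmQLFTest with group as the only term, prior count 0.125). P-values were adjusted by Benjamini-Hochberg over 19826 tested genes, with a threshold of 0.05. SE was obtained by dividing the size of each log2 fold change by the root of its F statistic. Ratios to Sycp1 used counts plus 0.5. The fit was first tested on simulated data, in which 19193 of 19392 genes were unchanged, far more than in these data. It called 46 of 100 genes with a true 2-fold change and 78 of 99 with a true 4-fold change. Of the unchanged genes 11 were called. Alternatives were other scalings (RLE, upper-quartile, library size, autosomal TMM), filters, DESeq2 1.42.0, limma-voom (limma 3.58.1), a replicate block and leaving out each library. Libraries of a group differed by more than sampling noise (chi-square per degree of freedom 3.82 to 65.0).

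The members and the 12 other gene lists were chosen with earlier results of these data known. Named genes are the members, Hormad1 and Hormad2, the 2 genes of smallest p in each pathway list and in 3 marker lists, and the 2 genes most like each member. Other genes are said to be chosen after their values were seen, or are named for an overlap of exons. Per kb levels, shares and axis genes without control replicate 3 were added after the data were seen. Of the genes this rule takes, Gm4969, Crisp2, Nme8, Cldn11 and Gata4 are covered by the summed levels of their lists. Dmc1 and Meiob stand in both a pathway and a marker list. All 103 listed symbols were matched, 1 by synonym.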

Additional observations from a re-analysis of the deposited data

How the results depend on the processing

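Syce1 and Syce3 fell and passed the test in all 15 alternative settings. For the 5 ratios to Sycp1, leaving out a library cannot turn the sign, since the groups do not overlap, and the block gives the same mean difference. Their size with 1 library left out ran from -2.21 to -1.58 for Syce1, -1.17 to -0.62 for Syce3, -0.28 to -0.24 for Tex12, 0.78 to 1.14 for Syce2 and 0.79 to 0.87 for 4930447C04Rik. Syce2 passed as higher with upper-quartile scaling (log2 fold change 0.65), library size alone (0.76), autosomal TMM (0.42) and the replicate block (0.40). Tex12 no longer passed with upper-quartile scaling (-0.63), library size alone (-0.52) or limma-voom (-0.81). Sycp1 passed as lower with no filter (-0.71), DESeq2 (-0.71) and the replicate block (-0.54). With 1 library left out, the log2 fold change ran from -0.96 to -0.44 for Sycp1, -2.62 to -2.47 for Syce1, 0.18 to 0.46 for Syce2, -1.65 to -1.44 for Syce3, -1.24 to -0.71 for Tex12 and -0.12 to 0.34 for 4930447C04Rik, whose sign turned without control replicate 3. The count of central region genes called then ran from 2 to 4 and that of all genes from 11829 to 14217. The cause of these changes was not tested.

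With the replicate number as a block 5 of the 6 genes passed, 4 lower and 1 higher, beside 13431 of all 19826 tested genes. The numbers were not taken to pair the animals: deviations of same-numbered libraries had correlations of 0.08, 0.08 and 0.13, not all above 0.1, although every library correlated best with its own number. Depth limited none of the 6 genes to fewer than 300 counts in a library.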

Other observations

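Syce1l, which is annotated as Syce1-like and is not counted among the central region genes, had levels of 10.9, 13.8 and 17.8 CPM in control libraries 1 to 3 and of 0.559, 1.03 and 1.40 CPM in dsfb libraries 1 to 3 (log2 fold change -3.82, SE 0.37, edgeR adjusted p = 8.01e-05). Mybl1, which encodes the pachytene transcription factor A-MYB, was at 220, 233 and 146 CPM in the controls and at 96.0, 94.3 and 80.7 CPM in dsfb (log2 -1.15, SE 0.18, edgeR adjusted p = 0.000936). Stra8, the meiotic initiator, was at 51.1, 57.4 and 31.5 CPM in the controls and at 106, 92.1 and 70.2 CPM in dsfb (log2 0.94, SE 0.24, edgeR adjusted p = 0.0095). For all 3 genes the groups did not overlap, which held for 74.7% of all tested genes. Syce1l, Mybl1 and Stra8 were chosen after the values of the 6 genes were seen.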
